A study of Mus musculus with 12 samples.

Results

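The effect of losing miR-142 on mouse natural killer (NK) cells was compared between bone marrow and spleen. For each probe set the difference of effects was taken as the knockout minus wild type value in bone marrow, minus the same value in spleen. A negative difference means that the knockout value, relative to wild type, was lower in marrow than in spleen. The comparison took all 12 arrays of the series and 21789 of the 35556 probe sets, those annotated with exactly 1 gene symbol. They cover 19938 genes, each represented by its brightest probe set where genes are counted.

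The cells carried NK1.1 and lacked CD3 (sorted as CD3- NK1.1+) and came from C57BL6 mice, wild type or miR-142 knockout, which were matched for age and sex and were 7 to 10 weeks old. Each of the 4 groups, the 2 genotypes in bone marrow and in spleen, had 3 arrays labelled biological replicates. The labels do not give which bases were deleted or in which cells, nor whether an array held 1 mouse or a pool, so p-values measure the spread between these samples. Affymetrix arrays measured RNA amplified from 500 pg to 50 ng, and all values are log2 signals, on which a difference of 1 is a 2-fold change.

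MicroRNAs guide silencing complexes to matching sites in messenger RNAs, chiefly through the seed, and lower the output of those messages. The miR-142 hairpin is made in blood cells and gives a mature strand from each arm. NK cells develop in the bone marrow, where immature cells divide, and mature cells circulate through the spleen. Their survival depends on IL-15, and they kill through perforin and granzymes. The mature strands of miR-142, which were not themselves measured here, are shown with the seed, bases 2 to 8, in capitals. They are as listed by RefSeq for GRCm38.p6 at chr11:87756867-87756887 and chr11:87756903-87756925 on the plus strand.
mmu-miR-142a-5p: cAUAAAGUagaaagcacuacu
mmu-miR-142a-3p: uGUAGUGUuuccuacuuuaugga

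The Mir142 probe set, which checks the labels, was lower in the knockout in both tissues. Its log2 signal was 6.77, 7.17 and 7.58 in wild type spleen and 4.05, 4.59 and 4.50 in knockout spleen. In bone marrow it was 7.10, 8.25 and 7.14 in wild type and 4.69, 4.70 and 4.26 in the knockout. All 6 knockout arrays lay below all 6 wild type arrays. The knockout effect was -2.91 ± 0.29 (SE, n = 3 against 3) in spleen and -2.72 ± 0.32 in marrow, with limma adjusted p of 0.000125 and 0.000537. The difference of effects was 0.19, with a 95% interval from -0.81 to 1.19.

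Across the arrays, medians lay between 5.75 and 5.87 and lower quartiles between 4.55 and 4.72, and arrays of a group correlated at 0.984 to 0.992. All 14 NK identity genes on the list, among them Ncr1, Nkg7 and Klrb1c (which encodes NK1.1), lay above the 40th percentile of gene means, and their mean signal was 11.27 to 11.68 in every array. The labels number the arrays in 2 separate runs, and all knockout marrow arrays lie in the first run. The run was a term in the main fit and in the alternatives, unless stated otherwise. Effects and tissue differences are therefore adjusted for the run and need not equal differences of the printed signals. The run term passed for 0 probe sets and reached an unadjusted p under 0.05 for 1097, against 1089 expected at 5%. In bulk samples like these, fewer cells of a type and less RNA per cell cannot be told apart.

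Most genes that passed in both tissues moved the same way in each, and for 1 gene the effects differed after adjustment. The difference of effects passed for 1 of 21789 probe sets (0.00459%), which measures Slamf6. At an unadjusted p under 0.05 there were 1882 probe sets (8.64%), 1027 higher and 855 lower, against 1089 expected at 5%. The share that was lower moved from 45.4% to 68.1% when arrays were centred on their medians, so the balance of directions is not a stable feature. The median probe set had a 95% interval of ± 0.46, so differences below that size were not resolvable for most genes. That interval is not adjusted for the number of probe sets, and larger differences could also fail to pass. Those of Car1 (-3.48, SE 0.48) and Slc7a5 (-1.91, SE 0.27) did not pass. A single passing probe set therefore does not show that the other effects were equal in the tissues.

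Within each tissue the knockout had many effects. In spleen 991 probe sets passed (4.55%), 596 higher and 395 lower, and in bone marrow 916 passed (4.20%), 452 higher and 464 lower. On re-normalization by quantiles the marrow split was 503 higher and 329 lower, and on median centring it was 400 and 540. The spleen count was 477 without wild type spleen array 3 and 562 without knockout spleen array 3, and the marrow count was 321 without wild type marrow array 1. With the mean granulocyte marker level of each array as a covariate, 437 passed in spleen and 73 in marrow. In marrow that level was 6.40 to 6.61 in wild type and 5.70 to 6.11 in the knockout, so there the covariate partly repeats the genotype. By gene, 922 passed in spleen (4.62%) and 857 in marrow (4.30%), and 465 passed in both, of which 462 went the same way and 3 opposite ways. For 404 of the 462, the 95% interval of the difference of effects held 0. It lay wholly within ± 1 for 359. The tissue comparisons share no arrays but share the run term, and over all genes their effects correlated at Pearson r = 0.535 and Spearman rho = 0.254, as a description.

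**Figure D1:**
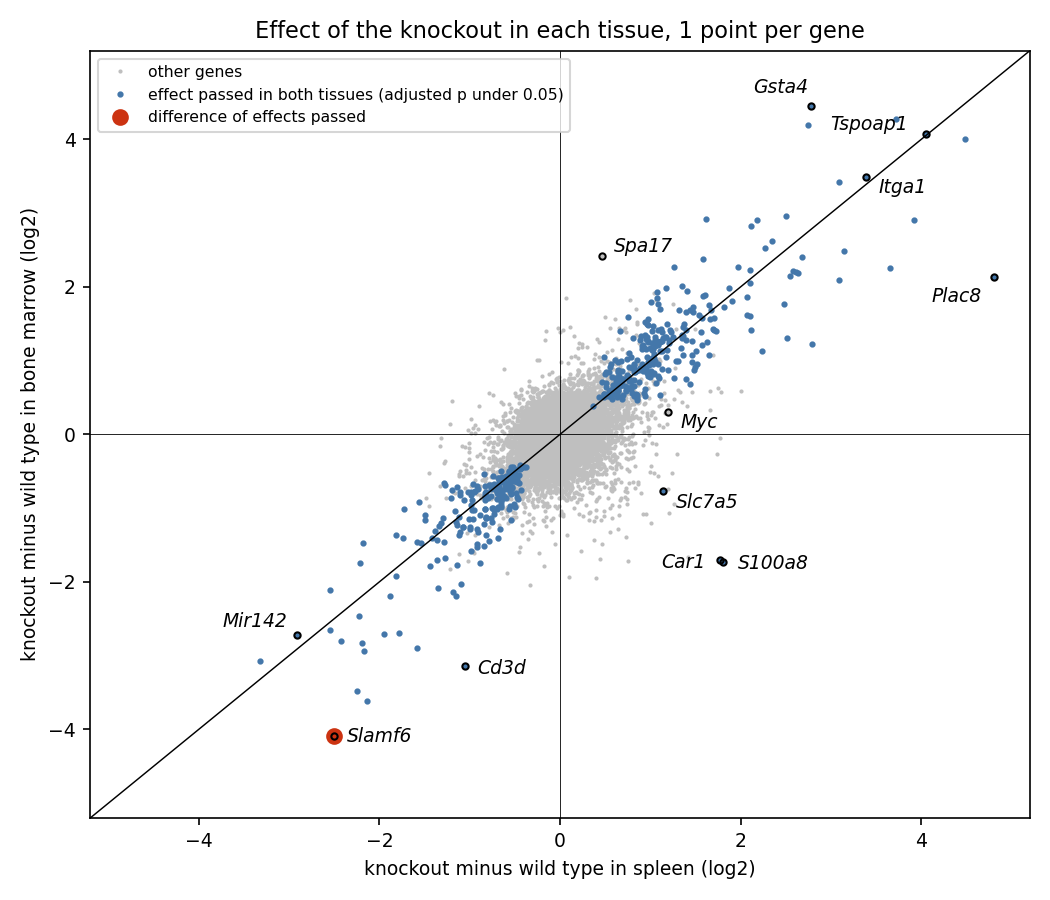
Knockout minus wild type in spleen (x axis, log2) against the same in bone marrow (y axis, log2), 1 point per gene, with the line of equal effects. Blue genes passed in both tissues, 462 of 465 in the same direction, and Slamf6 (red) lies below the line at -2.50 in spleen and -4.09 in marrow.

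Tspoap1, which lies next to Mir142 in the genome and encodes a protein of synaptic scaffolds, had log2 signals of 5.57, 5.78 and 5.55 in wild type spleen and 9.58, 9.94 and 9.59 in knockout spleen. In marrow it had 5.37, 5.66 and 5.41 in wild type and 9.72, 9.65 and 9.14 in the knockout. Every knockout array stood far above every wild type array, and the tissues overlapped within each genotype. The effect was 4.05 ± 0.17 in spleen and 4.07 ± 0.19 in marrow, a difference of 0.02 with a 95% interval from -0.57 to 0.61. For Itga1, the alpha chain of a collagen-binding integrin found on tissue-resident lymphocytes, the difference was 0.11 (-0.64 to 0.86). For Gzmc, a granzyme, it was -0.48 (-1.66 to 0.71), an interval that leaves a sizeable difference in either direction possible. For Gpr34, a receptor for lysophosphatidylserine, it was 0.33 (-0.40 to 1.06).

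Other genes with large shared effects had intervals that lay to one side of 0 without passing the adjusted threshold. Gsta4, a glutathione transferase, was at 5.45, 5.58 and 4.96 in wild type spleen, 8.14, 8.42 and 7.78 in knockout spleen, 5.30, 5.70 and 5.13 in wild type marrow and 10.23, 9.41 and 9.82 in knockout marrow. The knockout arrays of marrow all exceeded those of spleen, whereas the wild type arrays overlapped. The effect was 2.78 ± 0.25 in spleen and 4.45 ± 0.28 in marrow, and the difference of 1.67 ± 0.40 had a limma adjusted p of 0.328. Sema6d, a semaphorin, had a difference of 1.45 ± 0.35 (adjusted p = 0.33), and Inpp4b, a phosphoinositide phosphatase, one of -1.01 ± 0.30 (adjusted p = 0.413).

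Among NK regulators and effectors, no difference of effects passed. Il2rb, a receptor chain for IL-15 and IL-2, had a difference of 0.01 (95% interval -0.32 to 0.34). Gzmb, a granzyme that rose in both tissues (1.14 ± 0.12 in spleen and 1.31 ± 0.13 in marrow), had 0.17 (-0.26 to 0.59). Kit, the receptor for stem cell factor, fell in both tissues (-1.39 ± 0.15 and -1.31 ± 0.17) with a difference of 0.08 (-0.45 to 0.62). Ifng, the gene of interferon gamma, fell in both as well, and its difference of -0.73 had a wide interval (-1.77 to 0.31). The fall in Ifng in marrow did not pass without wild type marrow array 1 (adjusted p = 0.0809), nor that in spleen without wild type spleen array 1 or 3 or knockout spleen array 2 or 3 (0.0542 to 0.235). The transcription factors Eomes and Tbx21 had differences of 0.15 (-0.20 to 0.51) and -0.07 (-0.59 to 0.46).

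Slamf6 encodes a self-binding receptor of the SLAM family on lymphocytes. Its log2 signal was 7.31, 7.32 and 7.13 in wild type spleen and 8.35, 8.38 and 8.55 in wild type bone marrow. In the knockout it was 4.75, 4.85 and 4.68 in spleen and 4.47, 4.30 and 4.21 in marrow. The wild type groups did not overlap, with marrow above spleen, and the knockout groups did not overlap, with marrow below spleen. The knockout values lay near or below the lower quartiles of the arrays, at the dim end of the scale, where a signal has little room to fall further. The effect was -2.50 ± 0.11 in spleen and -4.09 ± 0.12 in marrow, and the difference was -1.59 ± 0.18 (95% interval -1.98 to -1.20, limma adjusted p = 0.0328). At such dim knockout signals both falls may be understated, and the difference is not an exact measure of a tissue-dependent effect. It is made up of a wild type tissue gap of 1.17 (adjusted p = 0.000733) and a knockout gap of -0.42 (adjusted p = 0.39).

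The size of this difference kept its sign in all 24 alternatives, between -1.72 and -1.36, but the call held in 9 of them, with adjusted p from 0.000949 to 0.729. Leaving out 1 array ended the call in 10 of 12 cases, at adjusted p from 0.0537 without knockout spleen array 2 to 0.272 without wild type marrow array 1, and it held without wild type spleen array 1 or knockout marrow array 1. With the replicate number as a block it was -1.571 (adjusted p = 0.0669), and with the number and genotype as a block -1.722 (limma adjusted p = 0.307). With the granulocyte level of each array as a covariate it was -1.358 ± 0.342 (adjusted p = 0.729), against an SE of 0.18 in the main fit. That level was 6.40 to 6.61 in wild type marrow and at most 6.11 in the other arrays, so the covariate partly repeats the groups. Fewer degrees of freedom remain as well. Of the 11 other SLAM family genes and adapters measured, 0 passed and 0 reached an unadjusted p under 0.05.

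**Figure D2:**
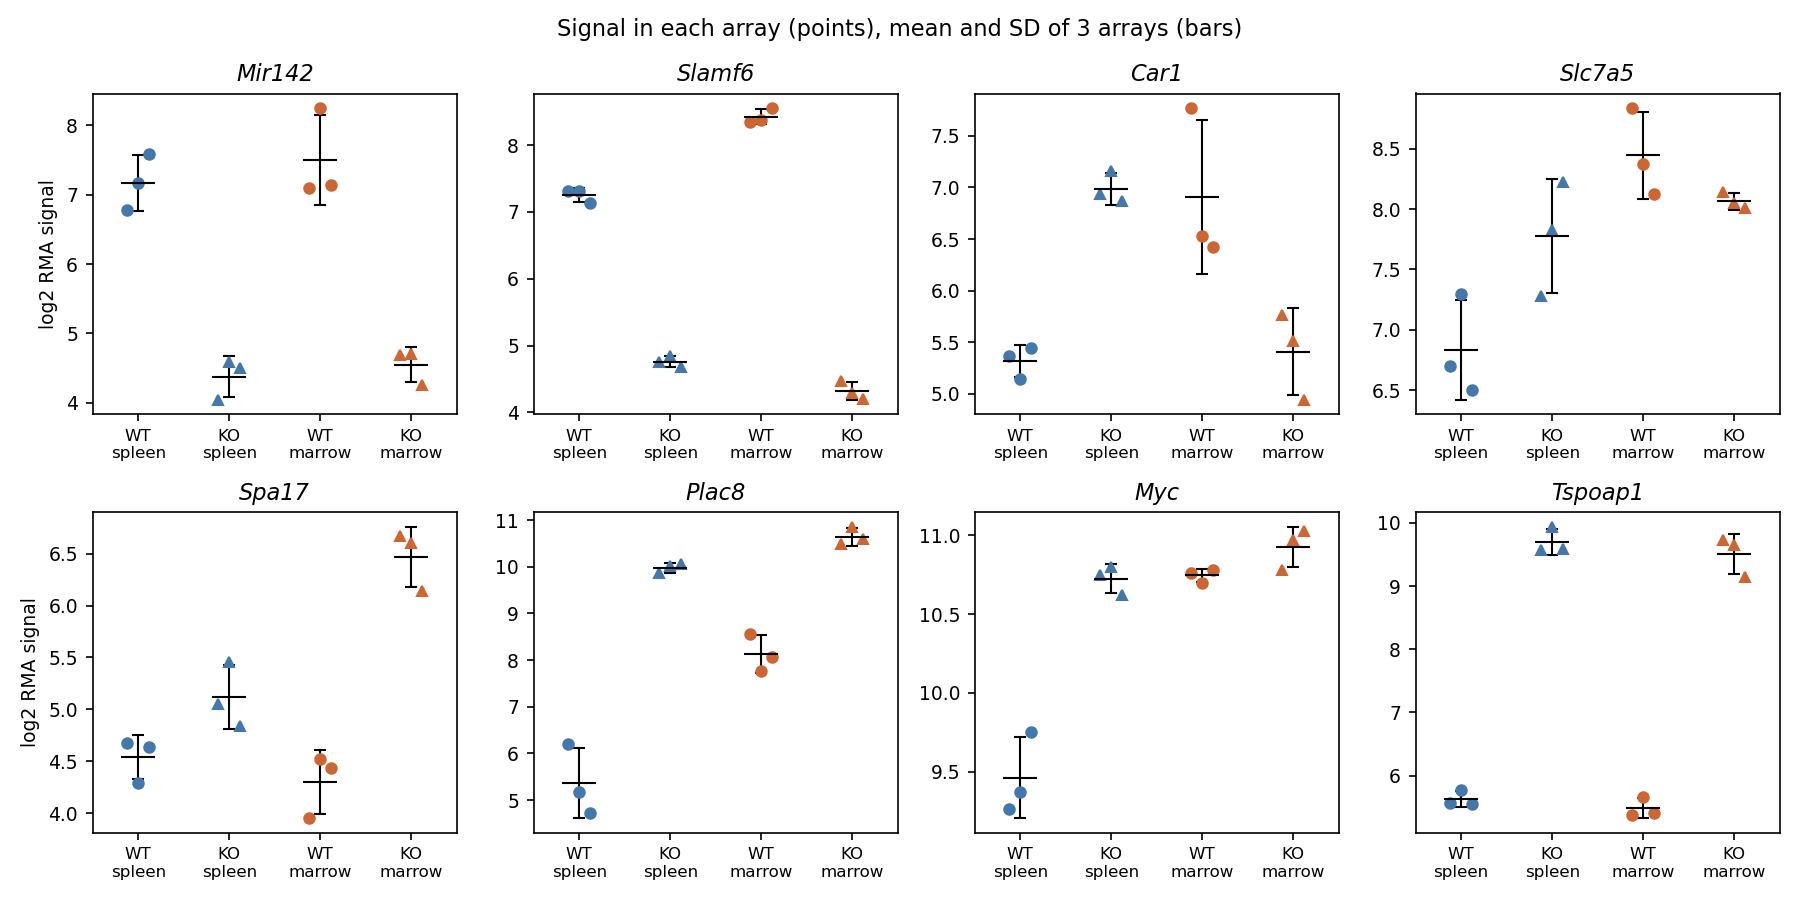
Log2 signal of 8 genes in each array (points), with the mean and SD of 3 arrays per group (bars); WT is wild type, KO knockout, and y axes do not start at 0. Mir142 and Tspoap1 shift the same way in both tissues, Slamf6 shows a larger fall in marrow, and Car1 is higher in knockout spleen and lower in knockout marrow.

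The next smallest p-values, none of which passed, belonged to Car1, Spa17, Slc7a5 and Plac8. Car1, a carbonic anhydrase abundant in red cells and their precursors, was at 5.37, 5.14 and 5.44 in wild type spleen and 6.93, 7.16 and 6.86 in knockout spleen. In marrow it was at 7.77, 6.53 and 6.42 in wild type and 5.76, 5.51 and 4.94 in the knockout. The knockout was above wild type in spleen and below it in marrow, with no overlap in either tissue. Within tissues the effects passed, at 1.77 ± 0.30 (limma adjusted p = 0.00544) and -1.71 ± 0.34 (0.0144). The marrow effect rests on wild type marrow array 1, the highest of its group, and was -0.89 without it (adjusted p = 0.196). The difference of -3.48 ± 0.48 did not pass (adjusted p = 0.0952). Of the 11 erythroid genes measured, 2 reached an unadjusted p under 0.05, against 8.55% of all genes, and the list's median difference of -0.18 was -0.02 without wild type marrow array 1.

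Slc7a5, the light chain of a large neutral amino acid transporter, was likewise opposite in the tissues. It was at 6.70, 7.29 and 6.50 in wild type spleen, 7.28, 7.83 and 8.22 in knockout spleen, 8.84, 8.37 and 8.13 in wild type marrow and 8.14, 8.05 and 8.01 in knockout marrow. Wild type and knockout overlapped slightly in both tissues. Adjusted for the run, it rose by 1.14 ± 0.17 in spleen (limma adjusted p = 0.00253) and fell by 0.77 in marrow (adjusted p = 0.0452). The difference of -1.91 ± 0.27 had an adjusted p of 0.0952. The adjusted fall in marrow and the adjusted difference are larger than the printed signals give. Leaving out 1 array ended the marrow call in 9 of 12 cases, with adjusted p up to 0.249 without wild type marrow array 1. With the run term in the fit, bone marrow exceeded spleen by 1.81 in wild type and differed from it by -0.10 in the knockout (limma adjusted p = 0.941). The printed knockout signals, without that term, have the higher mean in marrow.

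Spa17, which encodes a sperm surface protein, had its signal mainly in knockout marrow. It was at 4.68, 4.29 and 4.64 in wild type spleen, 5.05, 5.46 and 4.84 in knockout spleen, 3.95, 4.52 and 4.43 in wild type marrow and 6.67, 6.60 and 6.14 in knockout marrow. The knockout marrow arrays stood above all others. The difference of effects was 1.95 ± 0.28 (adjusted p = 0.0952), and the gene's mean of 5.11 lies below the 40th percentile of genes, at 5.49.

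Plac8, which encodes a small cysteine-rich protein of immune cells, rose in both tissues, more in spleen. It was at 6.21, 5.17 and 4.73 in wild type spleen and 9.86, 10.01 and 10.06 in knockout spleen. In marrow it was at 8.56, 7.77 and 8.07 in wild type and 10.48, 10.86 and 10.59 in the knockout. The wild type tissues did not overlap, whereas the knockout tissues lay closer together. The effect was 4.80 ± 0.25 in spleen and 2.13 ± 0.28 in marrow, a difference of -2.67 ± 0.40 (adjusted p = 0.104) that passed without wild type spleen array 1 (-2.845, adjusted p = 0.00476).

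Ccr2, a chemokine receptor that guides monocytes and other cells out of the marrow, went the other way. It fell in spleen, from 10.84, 11.01 and 11.05 to 9.95, 9.79 and 9.43. In marrow it was 11.16, 11.20 and 11.50 in wild type and 11.00, 10.84 and 11.05 in the knockout. The knockout spleen arrays alone stood apart from the rest. Its difference was 1.18 ± 0.20 (limma adjusted p = 0.14).

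Genes of growth and division formed lists whose members mostly lay below 0, while over all genes 43.4% did and the median difference was 0.04. Among the 11963 genes above the 40th percentile of genes, 6226 lay below 0 and the median was -0.01. All 25 ribosome biogenesis, 34 of 35 replication and all 29 mitosis genes lay above that percentile. Counts and medians are given as descriptions, since no list was tested. Over all genes 8.55% reached an unadjusted p under 0.05. Above the 40th percentile 681 reached it with a difference below 0 and 427 with one above 0. Among 25 ribosome biogenesis genes, 23 lay below 0, 0 passed, 11 reached an unadjusted p under 0.05, and the median was -0.34. Among 35 DNA replication genes, 34 lay below 0, 0 passed, 9 reached an unadjusted p under 0.05, and the median was -0.46. Among 29 mitosis genes, 27 lay below 0, 0 passed, 7 reached it, and the median was -1.29. These medians combined effects of 0.15 in spleen and -0.25 in marrow for ribosome biogenesis, -0.00 and -0.55 for replication, and 0.65 and -0.53 for mitosis.

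Gnl3, or nucleostemin, a nucleolar GTP-binding protein, had the smallest p among the ribosome biogenesis genes. It was at 7.87, 7.98 and 7.60 in wild type spleen, 8.22, 8.40 and 8.46 in knockout spleen, 8.89, 8.78 and 8.61 in wild type marrow and 8.23, 8.56 and 8.53 in knockout marrow. The knockout was above wild type in spleen and below it in marrow, without overlap. Its difference was -1.09 ± 0.19 (limma adjusted p = 0.146). Dkc1, the pseudouridine synthase dyskerin, had a difference of -0.95 ± 0.19 (adjusted p = 0.227), and Mcm10, a replication initiation factor, one of -0.98 ± 0.28 (adjusted p = 0.393). Mki67, the Ki-67 proliferation marker, had -2.03 ± 0.79 (adjusted p = 0.514). It ranged from 7.56 to 9.99 within knockout marrow, so the spread there was larger than the marrow effect of -1.08.

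The mitosis list moved most with single arrays. Its mean signal was 8.45, 7.40 and 6.54 in knockout marrow and 8.37, 7.91 and 7.42 in wild type marrow, so the marrow groups overlapped. Its median difference was -2.13 without knockout spleen array 3 and -0.66 without wild type marrow array 1, and was -0.85 without knockout marrow array 3. The replication median was -0.18 without wild type marrow array 1. The ribosome biogenesis median stayed between -0.41 and -0.31 when any 1 array was left out.

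Myc, a transcription factor that drives growth genes, rose in spleen and was high in marrow of both genotypes. It was at 9.27, 9.37 and 9.76 in wild type spleen and 10.75, 10.80 and 10.62 in knockout spleen. In marrow it was at 10.76, 10.70 and 10.78 in wild type and 10.78, 10.97 and 11.03 in the knockout. Wild type spleen alone stood apart, below the other 9 arrays. The effect was 1.20 ± 0.12 in spleen (adjusted p = 0.000122) and 0.31 ± 0.13 in marrow (adjusted p = 0.235), and the difference of -0.89 ± 0.19 had an adjusted p of 0.247. In the list of Myc and amino acid transport, 10 of 12 genes lay below 0, with a median of -0.53. Among 24 immediate early genes, 21 lay below 0, 0 passed, 7 reached an unadjusted p under 0.05, and the median was -0.64. Ier2, a member of that list, had -1.08 ± 0.32 (adjusted p = 0.426).

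Promoter windows, from 250 bases before to 50 bases after each gene's start, were read from RefSeq for GRCm38.p6 and searched on both strands for the letters CACGTG, an E-box of the kind that Myc binds, and for TTTGGCGC or TTTCCCGC, E2F-type motifs of cell cycle genes. CACGTG was found in 7 of 20 ribosome biogenesis genes with a window (35.0%) and in 2187 of 27025 genes overall (8.09%). The E2F-type letters were found in 10 of 29 replication genes (34.48%), in 0 of 25 mitosis genes and in 486 of 27025 genes overall (1.8%). A match is a description and not a bound site. Any members on a chromosome left out of the choice were not considered for printing. Of the others, those with a match and the smallest p are printed, chosen after their values were seen, with matches in capitals: Wdr43, a ribosome assembly factor (difference -0.59 ± 0.20), at chr17:71615965-71616264 on the plus strand, and Mcm3, a subunit of the replicative helicase (difference -0.96 ± 0.34), at chr1:20820263-20820562 on the minus strand.
Wdr43: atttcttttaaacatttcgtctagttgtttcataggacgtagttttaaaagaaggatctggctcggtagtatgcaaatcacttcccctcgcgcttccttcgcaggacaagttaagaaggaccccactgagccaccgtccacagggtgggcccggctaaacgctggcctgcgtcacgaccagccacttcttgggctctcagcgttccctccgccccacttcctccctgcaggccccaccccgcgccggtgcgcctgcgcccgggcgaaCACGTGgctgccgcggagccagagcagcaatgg
Mcm3: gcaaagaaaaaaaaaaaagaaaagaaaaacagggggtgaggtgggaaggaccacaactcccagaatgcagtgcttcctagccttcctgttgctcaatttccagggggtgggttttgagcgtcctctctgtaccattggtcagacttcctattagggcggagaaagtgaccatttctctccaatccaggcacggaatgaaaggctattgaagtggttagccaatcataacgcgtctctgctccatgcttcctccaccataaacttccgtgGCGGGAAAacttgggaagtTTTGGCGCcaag

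**Figure D3:**
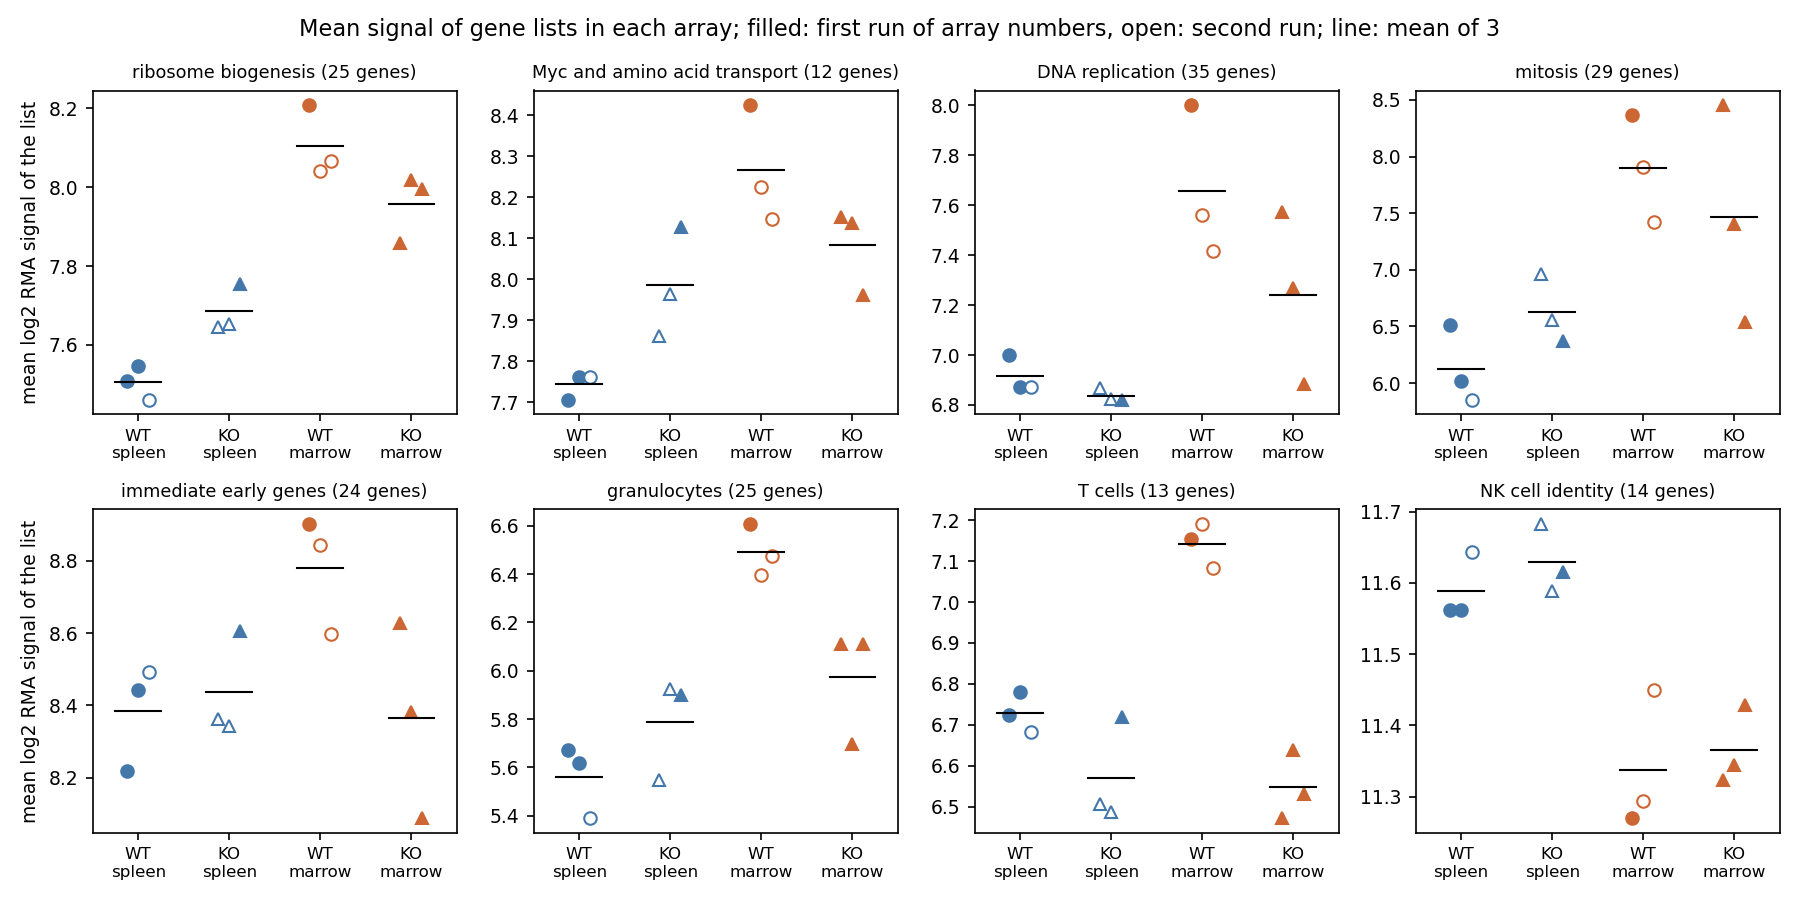
Mean log2 signal of 8 gene lists in each array, by group; filled points are arrays of the first run of array numbers, open points the second run, lines are group means and y axes do not start at 0. Wild type marrow is the highest group in most panels, knockout marrow arrays spread widely for mitosis, and NK identity stays between 11.27 and 11.68.

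Most granulocyte markers had differences below 0, and none passed. Of 25 measured, 19 lay below 0 and 6 above it, 14 reached an unadjusted p under 0.05, and the median was -0.92; 11 of the 25 lie below the 40th percentile of genes. Their mean signal was 5.39 to 5.67 in wild type spleen, 5.55 to 5.92 in knockout spleen, 6.40 to 6.61 in wild type marrow and 5.70 to 6.11 in knockout marrow. Wild type marrow stood above the other groups. S100a8, a calcium-binding protein of neutrophils, was at 8.13, 7.56 and 6.39 in wild type spleen, 8.04, 9.18 and 9.47 in knockout spleen, 10.88, 10.81 and 10.73 in wild type marrow and 10.10, 8.94 and 9.79 in knockout marrow. The marrow groups did not overlap, and the spleen groups did. Adjusted for the run, it rose in spleen by 1.81 ± 0.37 and fell in marrow by 1.74. The difference of -3.54 ± 0.59 had a limma adjusted p of 0.14. These adjusted sizes are larger than the printed signals give. The marrow call ended in 9 of 12 cases with 1 array left out, with adjusted p up to 0.0983 without knockout marrow array 2, and the spleen call ended without wild type spleen array 3 (0.182) or knockout spleen array 3 (0.107). Lcn2, an iron-scavenging neutrophil protein, had -2.47 ± 0.41 (adjusted p = 0.14).

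With the granulocyte level as a covariate, the median difference was -0.52 for ribosome biogenesis, -0.55 for replication and -1.49 for mitosis. The covariate is the mean of the same 25 granulocyte genes, so their own median, 0.08 in that fit, had to approach 0 and tests nothing. Without wild type marrow array 1 the granulocyte median was -0.54. The part of granulocyte RNA in the differences was not tested.

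Cd3d and Cd3g encode signalling chains of the T cell receptor, and had the smallest p among the T cell genes, in cells sorted as lacking surface CD3. Neither difference of effects passed. Cd3d was at 7.83, 7.58 and 7.43 in wild type spleen, 6.39, 5.71 and 7.11 in knockout spleen, 9.39, 9.30 and 9.32 in wild type marrow and 6.26, 6.78 and 6.49 in knockout marrow. Wild type exceeded knockout in both tissues without overlap, with the wider gap in marrow. The effect was -1.05 ± 0.23 in spleen and -3.14 ± 0.26 in marrow, and the difference of -2.09 ± 0.37 had an adjusted p of 0.159. The spleen call ended without wild type spleen array 1 (0.0682) or 3 (0.188). Cd3g had an effect of 0.44 ± 0.22 in spleen (adjusted p = 0.365), of opposite sign to that of Cd3d, and -1.69 ± 0.24 in marrow (adjusted p = 0.00213), a difference of -2.14 ± 0.35 (adjusted p = 0.14). Of 13 T cell genes measured, 9 lay below 0, 0 passed and 4 reached an unadjusted p under 0.05, with a median of -0.27 that was -0.08 without knockout spleen array 3. The list's mean signal was 6.68 to 6.78 in wild type spleen, 6.49 to 6.72 in knockout spleen, 7.08 to 7.19 in wild type marrow and 6.47 to 6.64 in knockout marrow, and 10 of the 13 genes had means above the 40th percentile of genes. Cd4 (4.99), Cd8b1 (4.91) and Ctla4 (4.99) were the other 3, named after their values were seen. The part of T cells in these differences was not tested.

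Of the remaining lists, some had medians near that of all genes and others did not. The medians were 0.00 for 21 genes of type 1 innate lymphoid cells and tissue residency, whose knockout effects were 0.80 in spleen and 0.78 in marrow, and 0.05 for 19 migration and adhesion genes, at -0.56 and -0.51. Of the 21, 4 reached an unadjusted p under 0.05, 2 below 0 and 2 above it, and their differences ranged from -2.67 to 1.07 over the list. For 22 cytotoxic effectors and cytokines the median was -0.00, and Gzmk, a granzyme, had the smallest p at -1.11 ± 0.24 (limma adjusted p = 0.279). For 19 reported miR-142 targets it was -0.01, with 1 gene at an unadjusted p under 0.05, Cfl2, an actin-severing cofilin, at 0.82 ± 0.19 (adjusted p = 0.3).

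Farther from the median of all genes lay 15 genes high in immature NK cells, at -0.36, with 10 below 0. They include Slamf6 and also Cd3g, which is on the T cell list too and had the lowest difference of both lists. The median was -0.09 without wild type spleen array 3, -0.08 without knockout spleen array 3 and -0.20 without knockout marrow array 3. Glycolysis lay at -0.22, with 11 of 13 genes below 0. On the positive side, 8 platelet genes lay at 0.22, and at 0.52, 0.09 and 0.13 without knockout spleen array 3, wild type marrow array 1 or knockout marrow array 3. Genes of other innate lymphoid cells (7 measured) lay at 0.22, and at 0.09 without knockout marrow array 2. The 20 TGF-beta pathway genes lay at 0.16, and at 0.05, 0.09 and 0.10 without knockout spleen array 3, wild type marrow array 1 or knockout marrow array 2. Apart from Slamf6, no member of these lists passed.

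**Figure D4:**
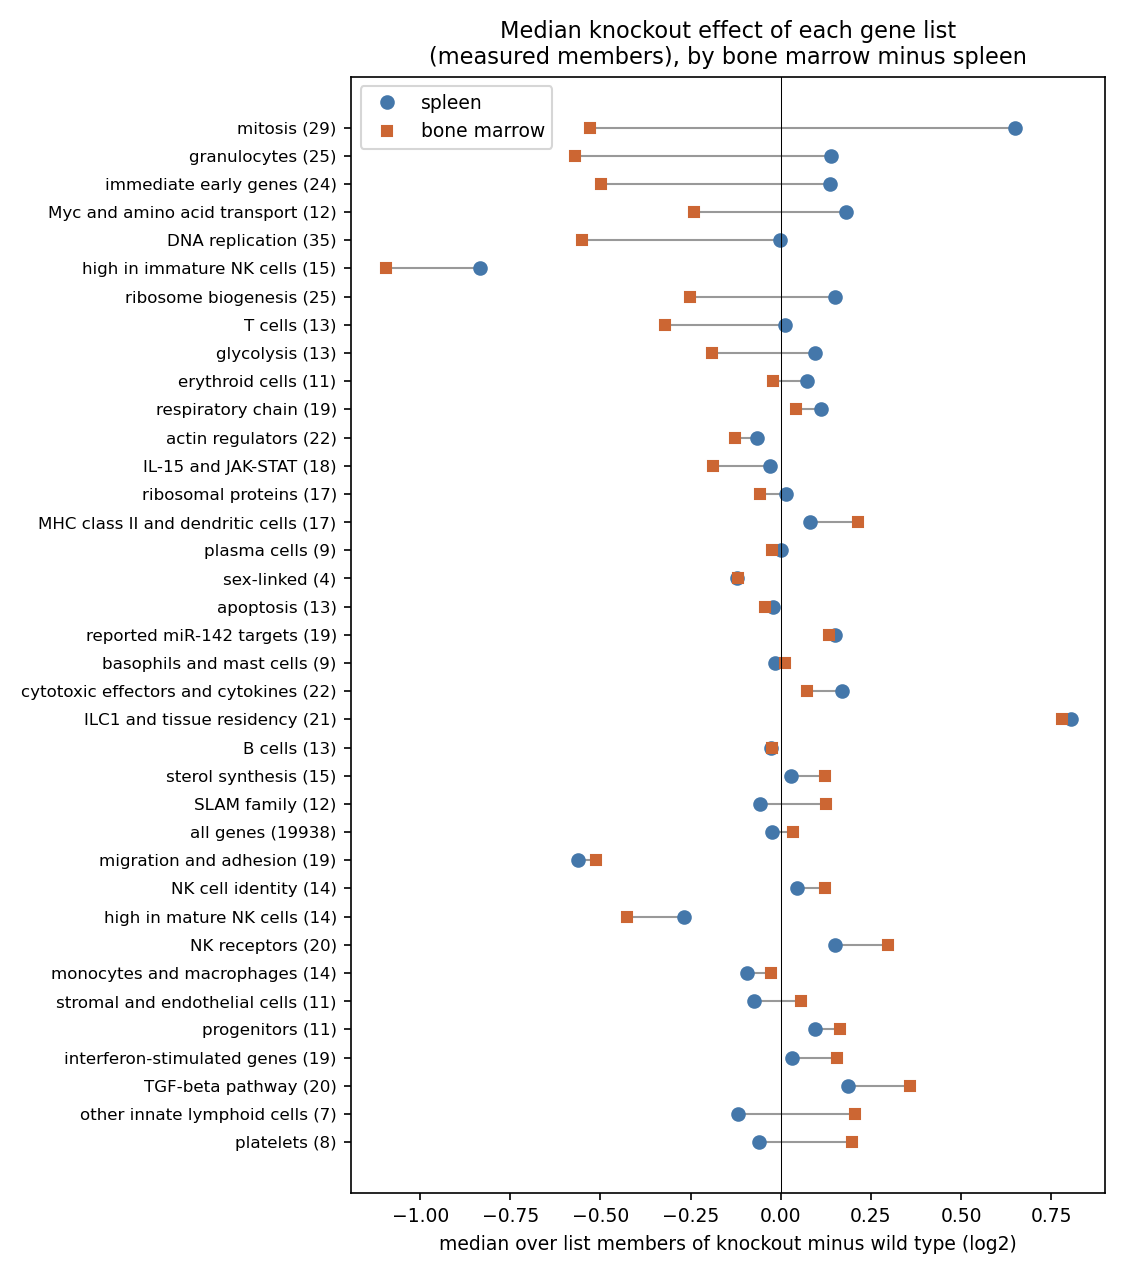
Median knockout effect (log2) in spleen (circles) and bone marrow (squares) for each gene list and for all genes, ordered by the difference, with the number of measured genes. The widest gaps are those of mitosis (0.65 and -0.53), granulocytes (0.14 and -0.57) and immediate early genes (0.14 and -0.50).

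The same contrast can be read as the change in the tissue difference. Bone marrow and spleen differed at 556 probe sets in wild type (2.55%), 452 higher and 104 lower in marrow, and at 31 in the knockout (0.142%), 7 higher and 24 lower. Median centring gave 782 higher and 68 lower in wild type. With the granulocyte level as a covariate, 0 probe sets passed in wild type (1517 at an unadjusted p under 0.05 in limma) and 27 in the knockout. That level was 5.39 to 5.67 in wild type spleen and 6.40 to 6.61 in wild type marrow, the highest group. The covariate thus nearly repeats the wild type tissue comparison and cannot separate granulocyte RNA from tissue. In the knockout the levels overlapped, at 5.55 to 5.92 and 5.70 to 6.11. The part of granulocytes in the tissue difference was not tested. The wild type count was 268, 256 and 81 without wild type spleen array 1, 2 or 3, and 57 and 255 without wild type marrow array 1 or 2. The knockout count was 0 without knockout spleen array 3 and 18 without knockout marrow array 3. Whether the counts differ is addressed by the difference of effects alone, which passed at 1 probe set.

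By gene, 404 were higher in marrow in wild type (2.03%), with a median of 0.79, and in the knockout the same genes had a median tissue difference of 0.20, with 319 of the same sign and 3 passing (0.0301% of all genes passed as higher in the knockout). For the 96 lower genes (0.481%) the medians were -0.62 and -0.21, with 63 of the same sign and 11 passing (0.120% of all genes passed as lower in the knockout). These genes were chosen on the wild type values, so a smaller value in the knockout is a description. The replication list had medians of 0.83 in wild type and 0.25 in the knockout, mitosis 2.00 and 0.72, and ribosome biogenesis 0.62 and 0.20. Itgam, the CD11b integrin chain that marks mature NK cells, was lower in marrow in both genotypes, at -1.07 and -1.42 (limma adjusted p = 0.0081 and 0.0087). That call ended without wild type spleen array 3 (0.0815) or wild type marrow array 1 (0.074) in wild type, and without knockout spleen array 3 (0.22) in the knockout.

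**Figure D5:**
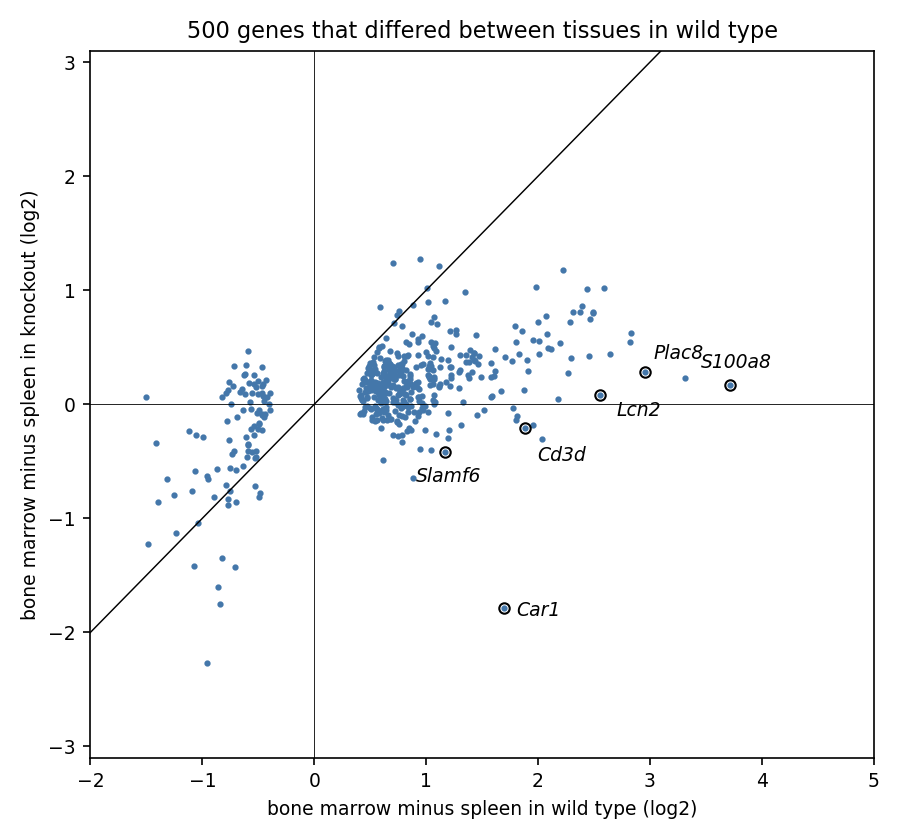
Bone marrow minus spleen in wild type (x axis, log2) against the same in the knockout (y axis, log2) for the 500 genes that passed in wild type, with the line of equality. Most of the 404 genes higher in marrow lie between the line and 0, and Slamf6 and Car1 lie below 0.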

How the data were processed

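NK cells of 4 groups, 3 arrays each, were profiled on Affymetrix arrays. The deposited values are log2 signals, made with Affymetrix Expression Console and RMA per the submitters' processing notes; their versions were not given in these sources. RMA normalizes arrays to a common distribution, so values are relative within arrays. Probe sets were named from the platform annotation: 21789 had 1 symbol, 1621 several and 12146 none, and 21698 were found in RefSeq. Probe sets with several or no symbol were left out.

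One limma model (limma 3.58.1, R 4.3.3) gave each group a mean plus a term for the run of array numbers in the labels, over all 21789 probe sets with no filter, with eBayes and Benjamini-Hochberg adjustment (threshold 0.05, 7 residual degrees of freedom). It was also run on simulated data with independent noise and no effect of the run, a setting that does not test the imbalance of the runs. The number of arrays limits the precision. Named genes were Mir142, the 5 smallest p-values of the difference, up to 2 per list, the 10 largest mean effects and a set of NK genes. The members and lists were chosen with earlier results of these data known. Alternatives changed the run term, block, normalization, filter, prior, array weights, granulocyte level and arrays.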

Additional observations from a re-analysis of the deposited data

Results flagged for a closer look

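The difference between the knockout effects in bone marrow and spleen was itself tested, and 1 probe set passed. It measures Slamf6, whose effect was -2.50 in spleen and -4.09 in marrow, a difference of -1.59 (limma adjusted p = 0.0328). The knockout signals lie near the lower quartiles of the arrays, so the size of each fall may be understated. With 3 arrays per group, no test for an outlying array within a group was run; the effect of leaving out each array is given with the results.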

How the results depend on the processing

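The number of probe sets with a passing difference of effects, 1 as reported, was 2 with the run as a random block and 4 with an intensity trend and robust prior. It was 0 with all probe sets of the table, the granulocyte covariate, the replicate block or the replicate block by genotype, and 0 to 2 with 1 array left out. The passing probe set was not always that of Slamf6. In the first run it was that of Ect2l (-3.287, limma adjusted p = 0.0293). Without knockout spleen array 3 it was that of Ephx1 (-2.039, adjusted p = 0.0331). Beside Slamf6, Car1 passed with the random block, and Slc7a5, Ccr2 and Spa17 with the trend and robust prior. The spleen count of 991 was 166 in the first run and 437 with the granulocyte covariate, and 477 to 996 with 1 array left out. The marrow count of 916 was 1603 with no run term, 287 in the first run, 1837 with the run as a random block, 562 with all probe sets and 73 with the granulocyte covariate, and 321 to 876 with 1 array left out. The wild type tissue count of 556 was 0 in the first run, 850 with median centring, 316 with all probe sets and 0 with the granulocyte covariate, and 57 to 661 with 1 array left out. The knockout tissue count of 31 was 74 with no run term, 2 in the first run, 91 with the run as a random block, 2 with the replicate block by genotype, 6 with all probe sets and 49 with the trend and robust prior, and 0 to 35 with 1 array left out. The first run has fewer arrays, and the granulocyte level differs between the groups, so as a covariate it partly repeats them. The other causes were not tested. Slamf6 had -1.39 (adjusted p = 0.486) in the first run, -1.571 (0.0669) with the replicate block, -1.722 (0.307) with the block by genotype, -1.589 (0.071) over all probe sets and -1.358 (0.729) with the granulocyte covariate, and -1.689 to -1.39 with 1 array left out. Of 90 named genes, 69 kept their sign in all alternatives run and 6 changed a call. After group means were removed, spleen and marrow arrays with the same number and genotype correlated at 0.0255 to 0.186, with 3 of 6 over 0.1. Over all 18 pairs with the same number, across genotypes too, the range was -0.0345 to 0.186, with 5 over 0.1. Whether the numbers pair spleen and marrow of the same mice is not known. The main fit did not pair them.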
